A study of Arabidopsis thaliana with 20 samples.

Results

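The core and linker histone genes of Arabidopsis thaliana were followed through 2 kinds of RNA in seedlings of 2 genotypes, the wild type Col-0 and the double mutant rz-1b rz-1c. The 43 members were chosen as a gene family, by gene identifier, from the 33602 genes of the chromatin-bound tables and the 33554 of the mRNA table, and all 43 were found in both. They comprise 27 replication-dependent copies (4 canonical H2A, 10 H2B, 5 H3.1 and 8 H4 genes), 12 variants (2 H2A.X, 4 H2A.Z, 3 H3.3 and 3 linker histone H1 genes) and 4 genes set in neither group, namely 3 H2A.W genes and the divergent H2B gene AT1G08170. Both genotypes were 10-day-old seedlings raised at 22 °C with 16 h of light and 8 h of dark. The genes mutated encode RNA-binding proteins with a glycine-rich region and known roles in splicing, and the labels do not describe the alleles further. Chromatin-bound RNA came from 4 libraries per genotype that carry 2 replicate numbers, and the deposited tables hold 1 column per number, so n = 2 per genotype. The mRNA libraries number 3 for each genotype in the labels, but the authors' deposited table has a single value for each genotype, with a q-value. The titles number these libraries as separate replicates, yet their codes follow the pattern of the chromatin-bound libraries. Some may thus belong to 1 replicate, which the labels do not settle. Whether replicates are separate batches of plants is not given, so a p-value here covers the spread between samples that may be technical.

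Core histones H2A, H2B, H3 and H4 form the protein spool of the nucleosome, and H1 binds the DNA that links one nucleosome to the next. Replication-dependent genes are transcribed mainly in S phase, when new DNA is packed, whereas variants are made outside S phase as well and mark particular chromatin: H3.3 transcribed genes, H2A.Z promoters and responsive genes, H2A.X sites of DNA breaks, and H2A.W heterochromatin. Plant histone mRNAs, unlike most of those of animals, are polyadenylated. Chromatin-bound RNA is what remains with the chromatin pellet after washing, much of it nascent transcript, and the labels state that both rRNA and remaining polyadenylated RNA were removed from it.

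All values are FPKM, fragments scaled by transcript length and by library total. Total counts are not known. Steps between low values gave relative depths of 1.51 and 1 for the wild-type columns and 2.80 and 2.98 for the mutant columns, with wild-type replicate 2 set to 1. Nuclear rRNA still made up 53.6% and 60.5% of the wild-type totals and 31.6% and 34.1% of the mutant totals. The median of all 19694 genes tested changed by 0.27 from wild type to mutant (log2 of FPKM + 1), and by 0.02 after median-of-ratios rescaling, which divides each column by the median of its gene ratios. Log2 changes of single histone genes are given without rescaling, and the calls made after rescaling are therefore stated beside them. Sums of FPKM and the overlap of columns between genotypes are likewise given without rescaling. Columns that overlap on this scale may not overlap on another, and the reverse. Of the mutated genes, RZ-1C (AT5G04280) fell in chromatin-bound RNA, from 16.7 and 13.1 FPKM to 4.59 and 4.27, and RZ-1B (AT1G60650) rose there, from 10.5 and 9.42 to 132 and 143. In the authors' deposited table the mRNA of each was lower, 31.7 against 2.77 for RZ-1C and 15.2 against 2.30 for RZ-1B, so the chromatin-bound level of RZ-1B goes against its mRNA. Green-tissue genes were abundant in every column, with summed chromatin-bound FPKM of 1247 and 988 in the wild type against 1256 and 1220 in the mutant. RBCS1A (AT1G67090) made up much of that sum, at 912 and 654 against 550 and 700, and the other 3 summed to 335 and 334 against 706 and 519.

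The chromatin-bound comparison gave lower values of most histone genes in the mutant. Of the 43 members 41 passed the filter of a mean of at least 1 FPKM, and 35 of these had a log2 change below 0, as did 28.7% of all genes tested. limma called 4 of them lower, the H4 genes AT5G59690 and HIS4 (AT2G28740) and the H2B genes HTB2 (AT5G22880) and HTB11 (AT3G46030). It called 2 higher, the H2A.Z gene HTA4 (AT4G13570) and the linker histone gene HIS1-3 (AT2G18050). The other 35 did not pass. Over all genes tested 4.24% were called lower and 13.2% higher. After rescaling 15 members were called lower, where 7.84% of all genes were, and 1 was called higher, HTA4, where 6.75% were. In these whole seedlings fewer cells that express a gene and less of its RNA per cell cannot be told apart.

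The direction of the values was more uniform than the calls. Both mutant columns lay below both wild-type columns for 21 of the 41 members tested, a pattern seen in 15.7% of all genes tested. Both lay above for 3 members, HTA4, HIS1-3 and the H2A.W gene HTA7, a pattern seen in 49.5% of all genes. The median log2 change was -0.35 over the 41 members, or -0.61 relative to all genes, and -0.62 after rescaling. Without rescaling the median was -0.40 for the 26 replication-dependent copies tested and -0.32 for the 12 variants, and the difference between these groups was not tested. With mutant replicate 1 or mutant replicate 2 left out, 0 members were called in either direction by limma, and the calls over all genes fell from 2595 higher and 835 lower to 201 and 147 without the first and 113 and 114 without the second. The copies within a class are so alike that reads may be shared between them, so class sums are given beside single genes for the replication-dependent classes.

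**Figure D1:**
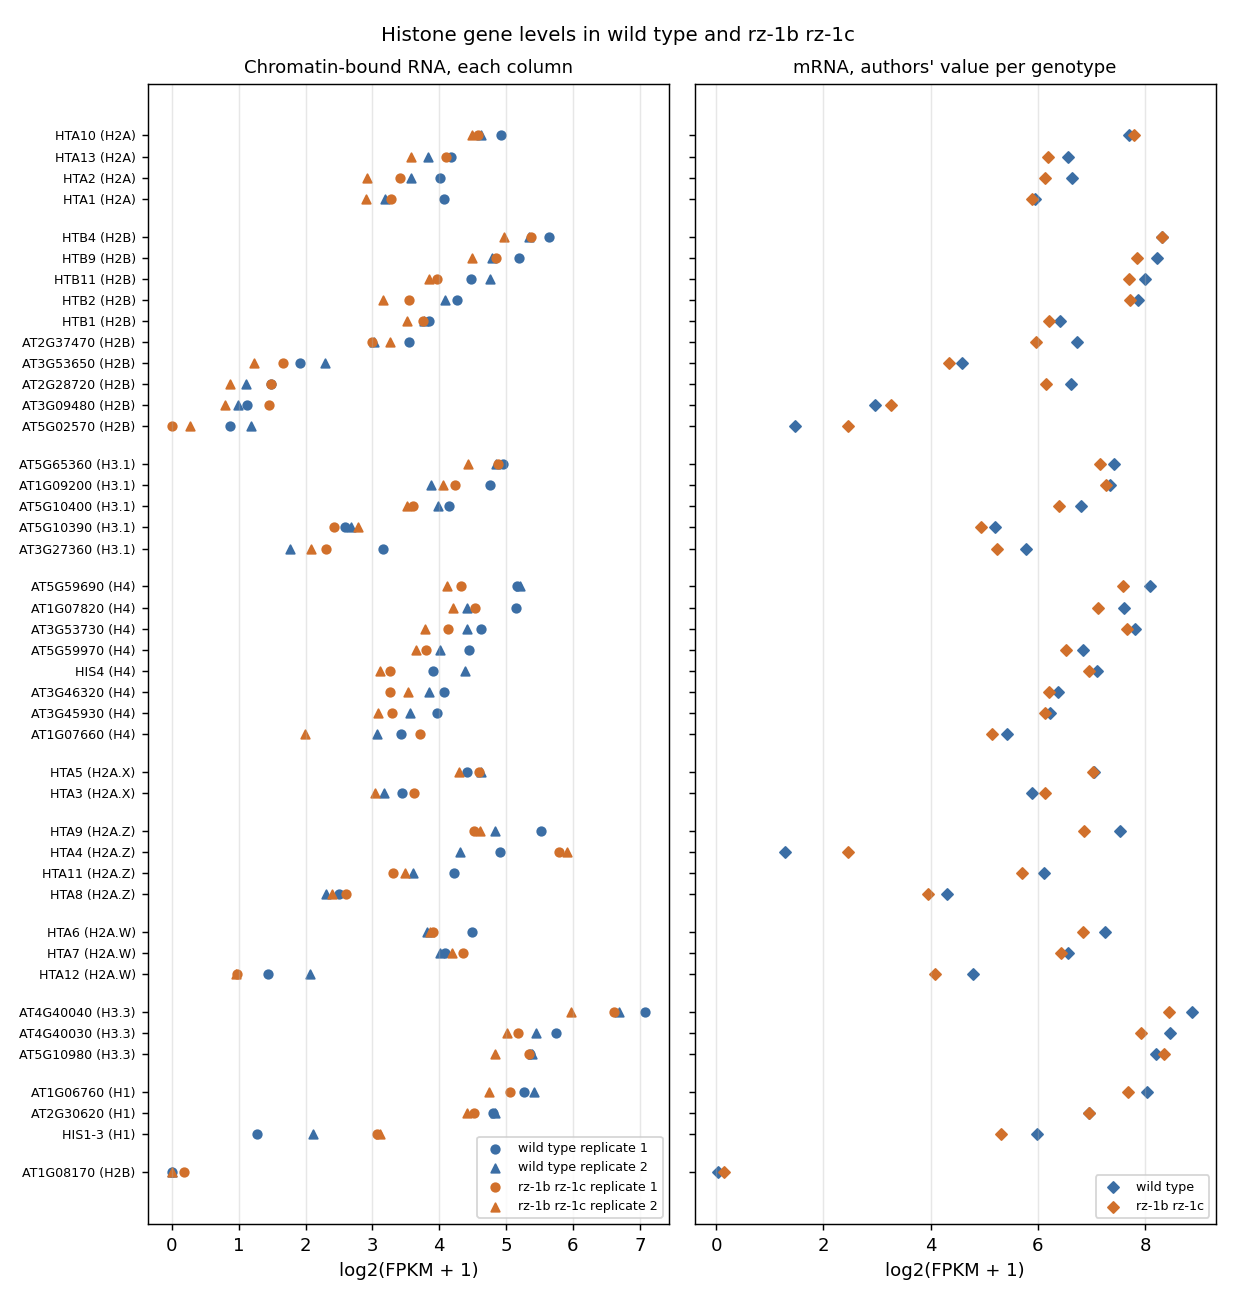
Levels of the 43 histone genes, as log2(FPKM + 1), in each chromatin-bound column (left; circles replicate 1, triangles replicate 2) and as the authors' single mRNA value per genotype (right), grouped by class. For 22 of the 43 genes both mutant points lie to the left of both wild-type points in chromatin-bound RNA, and for HTA4, HIS1-3 and HTA7 both lie to the right.

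The mRNA comparison also gave lower levels of many histone genes. Of the 43 members, 15 were lower in the mutant in the authors' deposited table at q under 0.05, 1 was higher and 27 did not pass. Among the 20851 genes of that table with a q under 1, 17.7% were lower and 16.9% higher. The 15 were 7 replication-dependent copies, 6 variants and 2 H2A.W genes, and the gene that was higher was HTA4. The median log2 ratio was -0.26 for the 27 replication-dependent copies and -0.36 for the 12 variants, against -0.0089 over those 20851 genes, from the values of the authors' deposited table.

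H4 was the class with the lowest median among replication-dependent copies in chromatin-bound RNA. Its 8 genes summed to 168 and 143 FPKM in the wild type against 109 and 86.9 in the mutant, with no overlap between genotypes. AT5G59690, the highest expressed H4 gene, was at 34.9 and 36.0 FPKM against 19.1 and 16.4, which gives -0.96 on the log2 scale (SE 0.17, limma adjusted p = 0.0133). HIS4 was at 14.0 and 19.9 FPKM against 8.61 and 7.65, also -0.96 on the log2 scale (SE 0.22, limma adjusted p = 0.0290). Both genes were at about the same fraction of their wild-type level in the mutant, 0.501 for AT5G59690 and 0.479 for HIS4. The other 6 H4 genes had log2 changes between -0.58 and -0.39 and did not pass. The call of HIS4 was also lost without wild-type replicate 2 (limma adjusted p = 0.0709) and without the filter, while that of AT5G59690 was lost only without mutant replicate 1 or 2, of the 13 alternatives. After rescaling 6 of the 8 were called lower, the exceptions being AT1G07820 and AT1G07660. AT1G07660 had the widest replicates, at 12.2 and 2.98 FPKM in the mutant.

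In mRNA the authors' deposited table has AT5G59690 at 270 FPKM in the wild type against 190 in the mutant (q = 0.00141), and AT1G07820 at 194 and 137 (q = 0.00365). HIS4, which fell in chromatin-bound RNA, stood there at 135 and 123 (q = 0.517). All 8 H4 genes had a log2 ratio below 0 in that table, between -0.51 and -0.09, as did 50.6% of its genes with a q under 1.

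The H2B genes ranged widely. Together they summed to 154 and 135 FPKM in the wild type against 119 and 95.1 in the mutant, with no overlap between genotypes. HTB4 (AT5G59910) was the highest, at 48.8 and 39.4 FPKM in the wild type against 40.4 and 30.4 in the mutant (log2 change -0.31, SE 0.21, limma adjusted p = 0.308). AT5G02570 was among the lowest, at 0.818 and 1.28 FPKM against 0 and 0.207, and did not pass the filter. Its mutant columns lay below both wild-type columns, and in the fit without the filter its limma adjusted p was 0.0572. HTB2 fell from 18.2 and 16.0 FPKM to 10.6 and 7.90 (log2 change -0.83, SE 0.21, limma adjusted p = 0.0371). HTB11 fell from 21.3 and 26.0 to 14.7 and 13.3 (log2 change -0.71, SE 0.19, limma adjusted p = 0.0416). These were the 2 H2B genes called, with or without rescaling. Besides the mutant replicates, leaving out wild-type replicate 1 or 2 ended the call of HTB2 (limma adjusted p = 0.0684 and 0.0550) and leaving out wild-type replicate 2 that of HTB11 (limma adjusted p = 0.104), as did a fit with no filter or no trend for both. The other 7 tested had log2 changes between -0.66 and 0.07.

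In mRNA 3 other H2B genes passed. The authors' deposited table has AT2G37470 at 105 FPKM in the wild type against 61.4 in the mutant (q = 0.000329), AT2G28720 at 97.0 and 69.6 (q = 0.00601) and HTB9 (AT3G45980) at 297 and 228 (q = 0.0409). It has HTB2 at 232 and 210 (q = 0.472) and HTB11 at 252 and 207 (q = 0.101), neither of which passed. In chromatin-bound RNA the columns of those 3 genes overlapped. AT2G37470 was at 10.6 and 7.14 FPKM against 6.93 and 8.56, AT2G28720 at 1.78 and 1.15 against 1.78 and 0.823, and HTB9 at 35.7 and 26.7 against 27.8 and 21.4. Whether the H2B genes differ in response between the kinds of RNA was not tested.

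The 5 H3.1 genes and the 4 canonical H2A genes all had log2 changes below 0 in chromatin-bound RNA, and none passed. Of all genes tested, 28.7% had a change below 0. The H3.1 genes summed to 85.8 and 64.1 FPKM in the wild type against 65.7 and 55.6 in the mutant, which overlap without rescaling. The highest, AT5G65360, was at 30.0 and 27.8 against 28.3 and 20.5 (log2 change -0.25, SE 0.20, limma adjusted p = 0.402). AT5G10400 was at 16.8 and 14.9 against 11.1 and 10.4, without overlap (log2 change -0.51, SE 0.18, limma adjusted p = 0.0917), and was called after rescaling (limma adjusted p = 0.0223). It was also the 1 H3.1 gene to pass in mRNA, at 111 FPKM in the wild type against 82.6 in the mutant in the authors' deposited table (q = 0.0131). The canonical H2A genes summed to 77.2 and 55.9 FPKM in the wild type against 57.5 and 45.4 in the mutant, which overlap without rescaling. Among these H2A genes, HTA10 (AT1G51060) was the highest, at 29.3 and 23.6 FPKM against 23.0 and 21.4 (log2 change -0.24, SE 0.18, limma adjusted p = 0.382). HTA2 (AT4G27230) was at 15.1 and 10.9 against 9.69 and 6.60, without overlap, and was called after rescaling (limma adjusted p = 0.126, and 0.0375 after rescaling). The authors' deposited table has HTA2 mRNA at 97.8 and 69.1 (q = 0.00365).

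The H3.3 genes AT4G40040 and AT4G40030 had the 2 highest wild-type levels per length of the 43 members in both kinds of RNA, and chromatin-bound values of all 3 H3.3 genes were lower in the mutant without passing. AT4G40040 had 135 and 102 FPKM in the wild type against 97.2 and 61.7 in the mutant (log2 change -0.59, SE 0.25, limma adjusted p = 0.143). AT4G40030 was at 52.7 and 42.7 against 35.4 and 31.4 (log2 change -0.50, SE 0.18, limma adjusted p = 0.0998), and AT5G10980 at 40.2 and 40.8 against 39.7 and 27.6 (log2 change -0.28, SE 0.21, limma adjusted p = 0.363). None of the 3 overlapped between genotypes and none passed. After rescaling AT4G40030 and AT4G40040 were called lower (limma adjusted p = 0.0184 and 0.0425). Both passed in mRNA, at 352 and 241 FPKM for AT4G40030 (q = 0.000894) and 466 and 346 for AT4G40040 (q = 0.0108) in the authors' deposited table. It has AT5G10980 at 294 in the wild type against 326 in the mutant (q = 0.447).

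Among the H2A.Z genes HTA4 stood apart. HTA9 (AT1G52740), the highest in the wild type, was at 45.0 and 27.7 FPKM against 22.0 and 23.3 (log2 change -0.62, SE 0.24, limma adjusted p = 0.118, and 0.0349 after rescaling). HTA11 (AT3G54560) was at 17.7 and 11.2 against 8.90 and 10.2 (log2 change -0.52, SE 0.24, limma adjusted p = 0.171). Neither overlapped between genotypes, and both were lower in mRNA in the authors' deposited table, HTA9 at 183 and 114 (q = 0.000329) and HTA11 at 68.4 and 50.8 (q = 0.0252). Without wild-type replicate 2, HTA9 and HTA11 were called lower in chromatin-bound RNA (limma adjusted p = 0.0251 and 0.0488). HTA8 (AT2G38810) overlapped, at 4.63 and 3.95 against 5.09 and 4.28.

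HTA4, by contrast, rose from 29.2 and 18.8 FPKM to 54.3 and 58.9 in chromatin-bound RNA (2.36-fold, log2 change 1.23, SE 0.23, limma adjusted p = 0.0148, and 0.0232 after rescaling). The call was lost without mutant replicate 1 or 2 and without the filter, with limma adjusted p between 0.00470 and 0.135 over the settings tried. The authors' deposited table has it at 1.42 FPKM in the wild type against 4.53 in the mutant (q = 0.00257). It ranked 13th of the 43 members in wild-type chromatin-bound RNA and 42nd in wild-type mRNA. In RefSeq the miRNA gene MIR841a (AT4G13564) overlaps HTA4, so their reads may not be separable, and it went from 10.6 and 13.0 to 23.5 and 27.6 (log2 change 1.06, SE 0.19, limma adjusted p = 0.0141). The next gene in order, AT4G13572, does not overlap HTA4 and went from 17.1 and 17.4 to 33.5 and 33.9 (log2 change 0.93, SE 0.16, limma adjusted p = 0.0127). The part of these neighbours in the HTA4 values was not tested.

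The linker histone genes also split. AT1G06760 was the highest, at 37.7 and 41.9 FPKM in the wild type against 32.3 and 25.7 in the mutant (log2 change -0.45, SE 0.18, limma adjusted p = 0.128). AT2G30620 was at 26.9 and 27.6 against 22.0 and 20.4 (log2 change -0.35, SE 0.17, limma adjusted p = 0.178). Neither overlapped between genotypes, and both were called lower after rescaling (limma adjusted p = 0.0423 and 0.0443). In the authors' deposited table AT1G06760 mRNA was at 260 and 204 (q = 0.0478) and AT2G30620 at 123 in each genotype (q = 1.00).

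HIS1-3, the linker histone gene known for its induction by drought and abscisic acid, rose in chromatin-bound RNA and fell in mRNA. Its chromatin-bound level was 1.40 and 3.299 FPKM in the wild type against 7.39 and 7.67 in the mutant (3.20-fold, log2 change 1.41, SE 0.31, limma adjusted p = 0.0246). The authors' deposited table has its mRNA at 62.4 in the wild type against 38.7 in the mutant (q = 0.000329). The chromatin-bound call was lost after rescaling (limma adjusted p = 0.0651), with quantile scaling, with rRNA left out of the totals, without the filter and without mutant replicate 1 or 2, in a range of 0.00637 to 0.186, while the direction held in all of the fits that tested it. The neighbour VND1 (AT2G18060), which does not overlap it, was at 0.990 and 0.170 FPKM against 2.06 and 3.95 (limma adjusted p = 0.0513), and PIN1AT (AT2G18040), on the other side, at 16.7 and 18.4 against 15.0 and 15.0.

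No H2A.X gene passed in either kind of RNA, and H2A.W genes passed in mRNA alone. The H2A.X genes HTA5 (AT1G08880), at 20.4 and 23.7 FPKM against 23.1 and 18.7, and HTA3 (AT1G54690), at 9.86 and 8.03 against 11.4 and 7.24, overlapped between genotypes. Their limma adjusted p was 0.792 and 0.949, and their q in the authors' deposited table, 0.913 and 0.217. The H2A.W genes had log2 changes of -0.28 for HTA6 (AT5G59870), -0.79 for HTA12 (AT5G02560) and 0.23 for HTA7 (AT5G27670), and none passed. HTA6 was at 21.5 and 13.2 FPKM against 14.0 and 13.5, and HTA12 at 1.70 and 3.20 against 0.960 and 0.937, which was called lower without wild-type replicate 1 (limma adjusted p = 0.0312). Both were lower in mRNA in the authors' deposited table, HTA6 at 151 and 114 (q = 0.0202) and HTA12 at 26.8 and 15.9 (q = 0.00235). AT1G08170, the divergent H2B gene, was listed at 0 in both wild-type columns and in mutant replicate 2, and at 0.132 in mutant replicate 1.

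Proportions within a column do not depend on its scaling. The summed FPKM of replication-dependent copies was 1.16 and 1.13 times that of variants in the wild-type columns and 0.978 and 0.952 times in the mutant columns. Without HTA4 the ratios were 1.24 and 1.196 against 1.152 and 1.19, a smaller gap. The columns did not overlap, but the higher mutant column all but met the lower wild-type column. H4 made up 17.8% and 18.3% of all histone FPKM in the wild type against 14.6% and 14.2% in the mutant, and H3.3 made up 24.1% and 23.8% against 23.2% and 19.7%. H3.1 over H3.3 was 0.377 and 0.345 against 0.381 and 0.460, where the lower mutant column all but meets the higher wild-type column. HTA4 held 30.2% and 30.6% of H2A.Z FPKM in the wild type against 60.1% and 60.9% in the mutant. HIS1-3 held 2.13% and 4.53% of H1 FPKM against 12.0% and 14.3%. With 2 columns per genotype no exact test could go below p = 0.333, so these are given as values.

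In mRNA, from the values of the authors' deposited table, replication-dependent copies over variants came to 1.75 in the wild type against 1.79 in the mutant, and H3.1 over H3.3 to 0.479 and 0.487. HTA4 held 0.523% and 2.46% of H2A.Z there, and HIS1-3 held 14.0% and 10.6% of H1. The HIS1-3 share was thus higher in the mutant in chromatin-bound RNA and lower in mRNA.

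**Figure D2:**
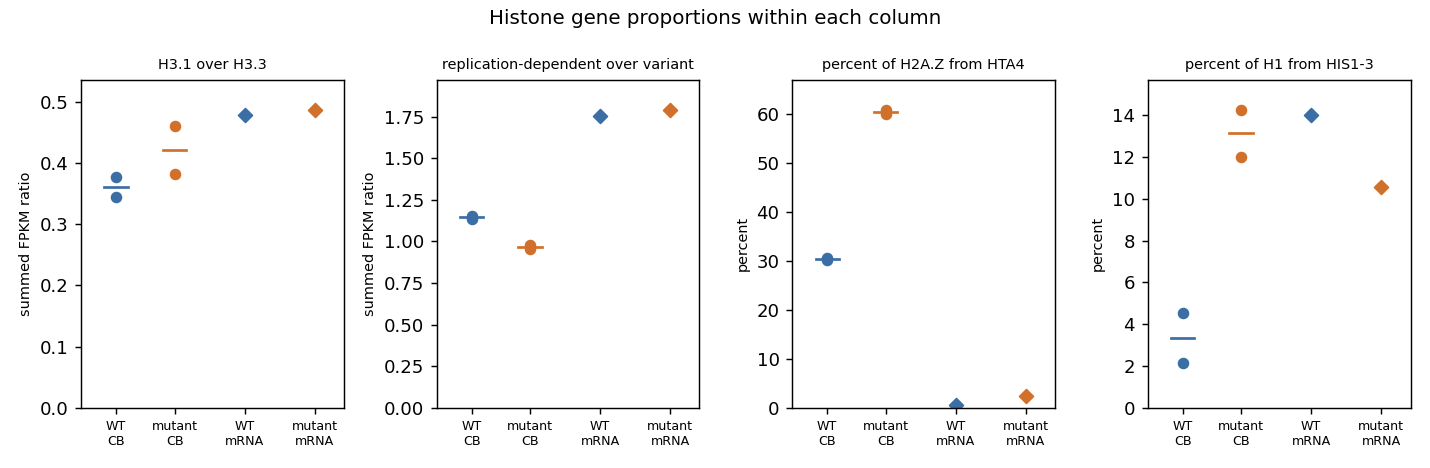
Proportions of summed FPKM among histone genes in each chromatin-bound column (CB; circles, with the mean of 2 replicates as a line) and in the authors' mRNA values (diamonds), all axes from 0. HTA4 goes from about 30.4% to 60.5% of H2A.Z in chromatin-bound RNA, and HIS1-3 from 3.33% to 13.1% of H1.

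The order of the 43 genes was much alike in the wild type of both kinds of RNA (Spearman's rho = 0.868 across genes, which are not independent replicates). HTA4 departed from it upwards in chromatin-bound RNA. AT2G28720 departed the other way, ranking 40th in chromatin-bound RNA and 24th in mRNA, as did HTB2, ranking 20th and 9th. Of the 41 members with a change in both, 32 were below 0 in both, 3 above 0 in both and 6 of opposite sign. Over all genes, 28.7% of those tested were below 0 in chromatin-bound RNA. In mRNA 50.6% of the genes with a q under 1 were, and the share below 0 in both was not taken. The changes correlated across those 41 genes with Pearson's r = 0.43, and r = 0.32 without HTA4 and HIS1-3. Only 3 genes were called in both kinds of RNA: AT5G59690, lower in both, HTA4, higher in both, and HIS1-3, of opposite direction. After rescaling, 15 of the 41 members tested were called lower in chromatin-bound RNA. Of the 15 genes lower in mRNA in the authors' deposited table, 7 were among them. Whether these calls overlap more than their shares alone would give was not tested.

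**Figure D3:**
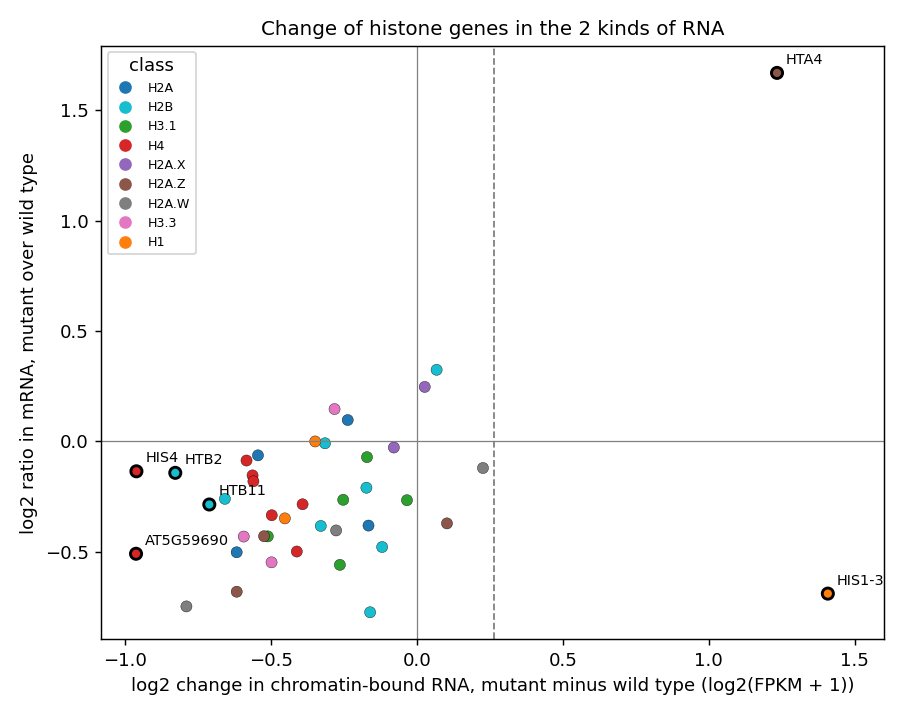
Log2 change of each of 41 histone genes in chromatin-bound RNA (x axis, mutant minus wild type on log2(FPKM + 1)) against the log2 ratio of the authors' mRNA values (y axis), coloured by class, with a heavy outline for genes called in chromatin-bound RNA. The dashed line is the median of all genes, 0.27, and 39 of the 41 genes lie to its left.

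Histone genes that neighbour each other were compared because such pairs can share reads at their ends. In RefSeq order 3 pairs of members lie side by side. The H3.3 genes AT4G40030 and AT4G40040 had log2 changes of -0.50 and -0.59, and the H3.1 genes AT5G10390 and AT5G10400 had -0.03 and -0.51. The H2A.W gene HTA12 and the H2B gene AT5G02570 were both low, and in both the mutant columns lay below the wild-type columns. In mRNA the authors' deposited table has AT5G02570 at 1.76 in the wild type against 4.47 in the mutant (q = 0.0631), opposite in sign to HTA12 and without passing.

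Genes that act with histones were taken as lists for context. Of 20 genes for histone chaperones and H2A.Z exchange, limma called 0 in chromatin-bound RNA, and also 0 after rescaling. Over all genes tested 13.2% were called higher and 4.24% lower, and 6.75% and 7.84% after rescaling. The highest of the 20 were NAP1;2 (AT2G19480), at 26.8 and 28.4 FPKM against 31.5 and 27.0, and NAP1;1 (AT4G26110), at 24.3 and 21.2 against 36.3 and 33.2 (limma adjusted p = 0.761 and 0.0549). Of the 20, 7 were higher in mRNA and 0 lower in the authors' deposited table, where 16.9% of the genes with a q under 1 were higher and 17.7% lower. NAP1;1 went from 62.8 to 97.6 (q = 0.000329), NRP1 (AT1G74560) from 60.8 to 93.4 (q = 0.000329), FAS2 (AT5G64630), a subunit of the factor that deposits H3.1, from 3.50 to 5.22 (q = 0.0266), and NAP1;2 from 86.5 to 125 (q = 0.000894) in that table.

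Of 16 DNA replication genes 15 were tested in chromatin-bound RNA, and 3 were called higher, where 13.2% of all genes were, and 0 lower. The 3 were the helicase subunit gene MCM5 (AT2G07690), at 8.32 and 6.23 FPKM against 13.2 and 12.7, TSO2 (AT3G27060), a ribonucleotide reductase gene, at 18.0 and 13.5 against 28.6 and 25.1, and the DNA polymerase alpha gene ICU2 (AT5G67100), at 6.16 and 7.30 against 12.1 and 11.4 (limma adjusted p = 0.0455, 0.0446 and 0.0439). All 3 calls were lost after rescaling, where 0 of the 15 passed. In mRNA the authors' deposited table has 6 of the 16 higher and 0 lower, where 16.9% of its genes with a q under 1 were higher and 17.7% lower. TSO2 went from 51.1 to 102 (q = 0.000329), ORC1B (AT4G12620) from 2.90 to 4.84 (q = 0.00189), RNR1 (AT2G21790) from 20.0 to 29.5 (q = 0.000894) and RNR2A (AT3G23580) from 14.9 to 20.6 (q = 0.0154) in that table. Of 7 S-phase regulators 1 was called higher and 0 lower in chromatin-bound RNA, where 13.2% and 4.24% of all genes tested were. It was RBR1 (AT3G12280), the retinoblastoma-related repressor of E2F factors, which rose from 18.1 and 15.2 to 32.1 and 35.1 FPKM (limma adjusted p = 0.0143, and 0.0316 after rescaling). The other 6 did not pass. In the authors' deposited table DPA (AT5G02470) and E2FC (AT1G47870) were higher in mRNA (q = 0.0113 and 0.0290).

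Of 6 mitosis genes, markers of dividing cells, 4 were lower and 0 higher in mRNA in the authors' deposited table, where 17.7% of the genes with a q under 1 were lower. It has KNOLLE (AT1G08560) at 50.3 and 29.3 (q = 0.000329), CYCB1;2 (AT5G06150) at 24.5 and 13.5 (q = 0.000329), CDKB2;2 (AT1G20930) at 15.0 and 10.5 (q = 0.0182) and CDKB2;1 (AT1G76540) at 24.5 and 18.8 (q = 0.0488). The others were CYCB1;1 (AT4G37490), at 6.67 and 5.22 (q = 0.172), and CDKB1;1 (AT3G54180), at 12.3 and 13.5 (q = 0.626), in the authors' deposited table. In chromatin-bound RNA limma called 0 of the 6, where 13.2% of all genes tested were called higher and 4.24% lower. KNOLLE was at 12.8 and 10.4 FPKM against 8.39 and 5.31 (limma adjusted p = 0.0923, and 0.0313 after rescaling), and CYCB1;2 at 8.45 and 7.98 against 5.82 and 6.88 (limma adjusted p = 0.272). Without rescaling the list summed to 41.0 and 30.3 against 30.1 and 30.3 in chromatin-bound RNA. Its median log2 change there was -0.14, and -0.37 after rescaling. In the authors' deposited table it summed to 133 against 91. Of 6 other H3 genes, 2 were tested and 0 called by limma. The centromeric HTR12 (AT1G01370) was at 1.62 and 2.64 against 4.57 and 4.04 (limma adjusted p = 0.0821).

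Some markers of other tissue moved with the genotype too. Of the 4 green-tissue genes, 3 were called higher in chromatin-bound RNA, where 13.2% of all genes tested were. After rescaling 0 of the 4 were called, and 0 passed in mRNA. All 4 seed markers were higher in mRNA in the authors' deposited table, where 16.9% of the genes with a q under 1 were. They summed to 7.40 in the wild type against 407 in the mutant, and SESA3 (AT4G27160) was listed at 0 in the wild type. In chromatin-bound RNA the seed list summed to 2.94 and 1.00 against 57.3 and 76.4, with CRA1 (AT5G44120) and CRC (AT4G28520) listed at 0 in wild-type replicate 2. All 4 root markers were lower in mRNA in the authors' deposited table, where 17.7% of the genes with a q under 1 were. They summed to 119 against 44.5. In chromatin-bound RNA 1 was called higher, IRT1 (AT4G19690), at 0.243 and 0 against 9.83 and 14.7, and 1 lower, PRP3 (AT3G62680). Of all genes tested in chromatin-bound RNA, 13.2% were called higher and 4.24% lower. The root list summed there to 9.97 and 7.78 against 16.6 and 20.4, and without IRT1 the other 3 summed to 9.73 and 7.78 against 6.81 and 5.75. These 3 differed in direction. PRP3 was at 5.77 and 5.74 against 2.68 and 2.57, and EXPA7 (AT1G12560) overlapped, at 3.23 and 1.36 against 2.60 and 1.81. COBL9 (AT5G49270) was higher without passing, at 0.737 and 0.686 against 1.53 and 1.37. The part of dividing cells, tissue make-up or rRNA share in the histone values was not tested.

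**Figure D4:**
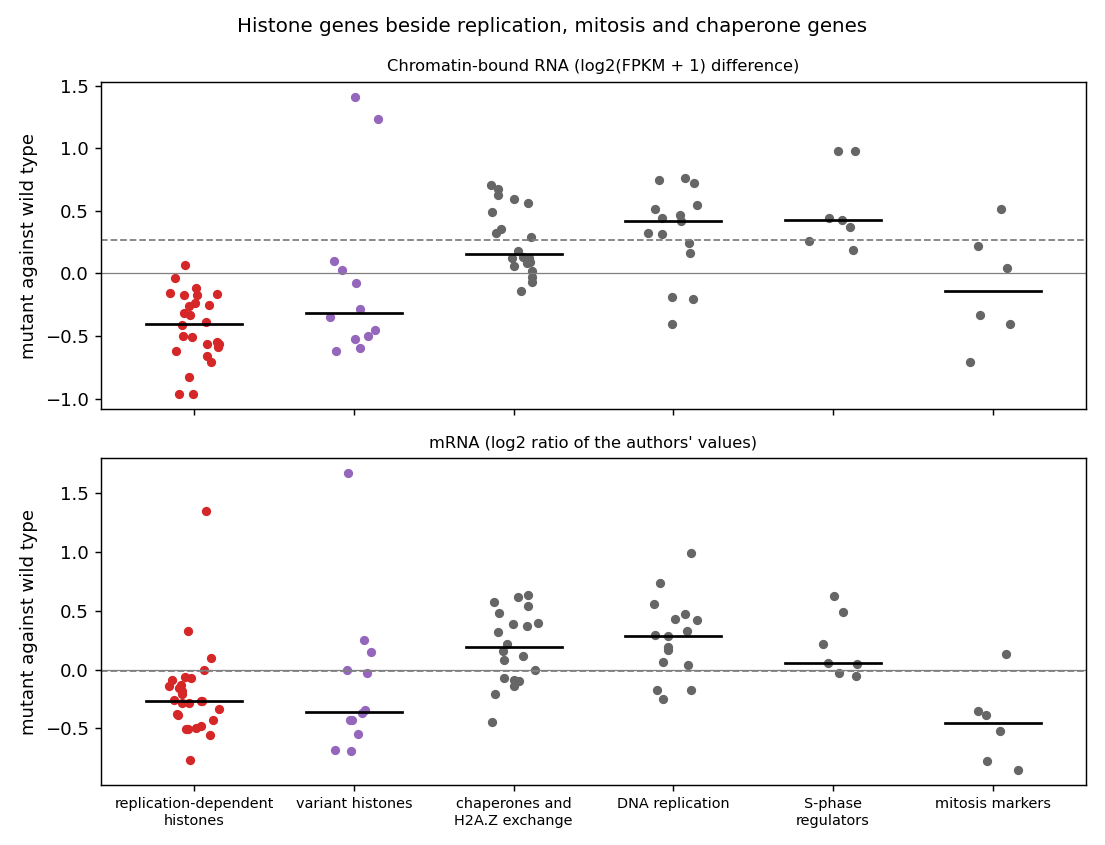
Change of single genes (points) and list medians (black lines) in chromatin-bound RNA (top, log2(FPKM + 1) difference) and mRNA (bottom, log2 ratio of the authors' values). Dashed lines are the median of all genes, 0.27 and -0.0089. The replication-dependent histone genes have medians of -0.40 and -0.26, the DNA replication genes 0.42 and 0.29.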

How the data were processed

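The authors deposited FPKM for chromatin-bound RNA in 1 table per genotype, each with 2 columns. Their mRNA table gives a value per genotype, taken here as FPKM because Cuffdiff reports that unit, and a q-value, per the file headers. According to the submitters' processing notes the build was TAIR10 and the tools were Cuffdiff 2.2.1, Cufflinks, TopHat2 2.1.1, StringTie 1.3.4d and HISAT2 2.0.5. The sources used here do not say which tool made which table, or whether counting used the strand that the chromatin-bound libraries keep per the labels. A further 1 column repeats mutant replicate 2 and was not used, while both mutant replicates were kept. The iCLIP libraries were not analysed here.

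A limma 3.58.1 fit with trend (R 4.3.3) compared log2(FPKM + 1) between the 2 columns of each genotype. Genes needed a mean of 1 FPKM or more, and p-values were adjusted by Benjamini-Hochberg over all 19694 genes, with calls under 0.05. On this scale the change of low genes is understated, and folds are ratios of mean FPKM. The fit compares columns from 2 tables, whose scaling beyond FPKM is not given. For mRNA the calls are the authors' q under 0.05 and log2 ratios were computed from their values.

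The members, the lists and the rule for named genes were chosen with earlier results of these data known. The rule names members called in either kind of RNA, the highest of each class, up to 4 called genes of a list by size of change, or its 2 highest where none was called. AT2G30620, AT5G10980, HTA8, HTA3, HTA7, AT5G02570, AT1G07660, HTR12, CYCB1;1, CDKB1;1, RBCS1A and the neighbours of HTA4 and HIS1-3 were added after their values were seen. Names are those of the RefSeq table of TAIR10.1, which held all 43 members. Members without a name there are called by identifier, and classes follow the known Arabidopsis histone families. Other pseudocounts, filters and scalings, a fit without trend, a replicate block and leaving out each column were the alternatives. Sequences were not used here.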

Additional observations from a re-analysis of the deposited data

Results flagged for a closer look

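HIS1-3 (AT2G18050) was called in both kinds of RNA in opposite directions, the chromatin-bound call being made without rescaling. That call was lost after median-of-ratios rescaling (limma adjusted p = 0.0651), with quantile scaling, with rRNA left out of the totals and without the filter. It was also lost without either mutant column. The log2 change of HIS1-3 was 1.41 in chromatin-bound RNA, with both mutant columns above both wild-type columns, and -0.69 in the values of the authors' deposited mRNA table. The difference between the kinds of RNA was not tested, since the mRNA table has no replicates.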

How the results depend on the processing

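The members called in chromatin-bound RNA depended on scaling and on the mutant columns. Against 2 higher and 4 lower of 41, median-of-ratios scaling gave 1 and 15, quantile scaling 1 and 12, and totals without rRNA 1 and 16. A mean of at least 5 FPKM gave 1 and 4, no filter 0 and 1, and no intensity trend 2 and 2. Over all genes, against 2595 higher and 835 lower, these counts were 1329 and 1543 with median-of-ratios scaling, 1445 and 1541 with quantile scaling, 1176 and 1695 with totals without rRNA, and 1418 and 513 with no filter. Replication-dependent copies called lower, 4 at first, were 10 with each of the 3 scalings, 1 with no filter and 2 with no trend. Variants called higher, 2 at first, were 1 with each scaling and with the 5 FPKM filter and 0 with no filter. Variants called lower, 0 at first, were 5 with median-of-ratios, 2 with quantile scaling and 6 with totals without rRNA. A pseudocount of 5 moved the medians relative to all genes to -0.47 for replication-dependent copies, -0.45 for variants and -0.46 for all members. The cause of these shifts was not tested.

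Leaving out each column in turn gave 113 to 4108 genes called higher and 114 to 880 lower, 0 to 2 members higher and 0 to 5 lower, 0 to 3 replication-dependent copies lower, and 0 to 2 variants in each direction. Both mutant replicates gave the counts of 0 members. The medians relative to all genes then ran from -0.76 to -0.53 for replication-dependent copies, -0.63 to -0.45 for variants and -0.72 to -0.55 for all members. At q under 0.01, 9 members and 3 variants were lower in mRNA, where 15 and 6 were at q under 0.05. The share of all genes at q under 0.01 was not taken, so these counts have no background beside them. Deviations of same-numbered columns were nearly uncorrelated across genes (Pearson's r = 0.0142). Whether the replicate numbers pair the samples is not given in the labels. A fit with the replicate block called 3469 genes higher and 1051 lower, and the same 6 members. Leaving out 1 column turned the sign of the log2 change in 10 of the 41 members tested, of which 0 were called in chromatin-bound RNA. HTA5 (AT1G08880) ran from -0.22 to 0.066, HTA6 (AT5G59870) from -0.61 to 0.057, AT2G28720 from -0.42 to 0.19, AT2G37470 from -0.42 to 0.097, HTA13 (AT3G20670) from -0.43 to 0.099, HTA3 (AT1G54690) from -0.26 to 0.32, AT1G09200 from -0.61 to 0.27, AT3G27360 from -0.96 to 0.43, AT5G10390 from -0.21 to 0.14 and AT1G07660 from -1.25 to 0.47. Depth as counts is unknown.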
